A study of Homo sapiens with 72 samples.

Results

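Gene expression in bystander cells was compared with that in control cells 2 h after exposure, in IMR-90, a normal human lung fibroblast line used here at early passage. Bystander cells are cells that were not hit themselves but lay among cells traversed by α-particles. The comparison rests on 8 arrays, 4 of bystander and 4 of control cells at 2 h, of 72 arrays in the series, and all genes measured on them were taken, in both directions. The question it addresses is which transcripts differ in cells that receive signals, and not dose, from irradiated neighbours.

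Bystander cells grew on an inner dish with a thick Mylar base, which stopped the particles, set into a larger dish with a thin Mylar base whose cells received 50 cGy of 4He ions. No gap separated the cells of the inner dish from those around it. Directly irradiated cells came from the outer dish, and control cells from dishes handled in the same way and sham-exposed. The dishes were separated, and RNA was taken at 2 h. All 3 kinds of dish held the same cells, and in each of 4 independent experiments they came from 1 pool of cells, so that ratios were formed within an experiment, apart from the differences within slides named as such. The model limits the comparison to 1 fibroblast strain, to contact or near contact between the layers, and to whole-dish RNA, in which fewer responding cells and less RNA per cell cannot be told apart. Each array measured 41000 probes in 1 colour, and 65.8% to 70.9% of its probes were well above background. Levels below are log2 signal with all arrays set to the same 75th percentile of 10.16, and ratios are bystander minus control on that log2 scale.

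The radiation bystander response travels through gap junctions and through secreted factors, and cytokines, prostaglandins and reactive oxygen species are known to take part in it. NF-κB, a family of transcription factors held in the cytoplasm by inhibitor proteins until a signal releases them, drives many of the inflammatory genes. Metallothioneins are small cysteine-rich proteins that bind zinc and copper and scavenge oxidants, and their genes are switched on by the zinc sensor MTF1 at metal response elements. The p53 protein, stabilised after DNA breaks, switches on genes of growth arrest and repair such as CDKN1A.

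The labelled cell type was borne out by its markers. All 13 fibroblast markers looked for were well above background on all 12 arrays at 2 h (control, bystander and irradiated), with DCN, a matrix proteoglycan, the brightest at a log2 level of 17.45. Of the other cell types, 3 of 10 epithelial markers, 5 of 9 endothelial markers and 4 of 12 immune cell markers were detected on all 12 arrays. Those detected were KRT14, SCGB1A1 and SFTPC of epithelium, CLDN5, ESAM, KDR, TEK and VWF of endothelium, and CD14, CD3E, CD68 and ITGAM of immune cells. Detected on none were CDH1, KRT17 and KRT5 of epithelium, TIE1 of endothelium and CD3D, LYZ and MS4A1 of immune cells. The endothelial list was led by TEK at 13.45, the epithelial list by the surfactant gene SFTPC at 8.24 and the immune list by CD68 at 8.84.

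Experiment 4 stood apart from the others. The spread of the bystander ratio over all probes (SD) was 0.37, 0.30 and 0.37 in experiments 1 to 3 and 0.71 in experiment 4. Its control array differed most from the rest of its group, with 15.0% of probes more than 2-fold away from the mean of the other 3 control arrays, against 2.85% to 4.02% for those. The unscaled log2 75th percentile differed, bystander minus control, by -0.33, -0.48 and -0.76 in experiments 1 to 3 and by 0.48 in experiment 4. Of the marker lists, 3 changed sign in it. The summed fibroblast markers stood at 19.72, 19.61, 19.69 and 20.05 in control and 19.75, 19.76, 19.90 and 19.23 in bystander cells of experiments 1 to 4, so that control cells were higher only in experiment 4. Epithelial markers summed to 9.12, 9.23, 9.21 and 9.98 in control and 9.77, 9.97, 9.68 and 9.65 in bystander cells, again with the sign of the difference turned in experiment 4. Endothelial markers summed to 13.55, 13.65, 13.57 and 13.28 in control and 13.71, 14.02, 13.73 and 13.01 in bystander cells, with the same turn. Immune cell markers did not turn, at 9.79, 9.53, 10.04 and 10.07 in control and 10.03, 9.82, 10.40 and 10.13 in bystander cells. What part these differences had in the results was not tested, and the main counts are therefore given with all 4 experiments and without experiment 4.

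A small set of genes was higher in bystander cells at 2 h, led by the metallothioneins, and few were lower. At an adjusted p below 0.10 (limma with the experiment as a block, Benjamini-Hochberg over 25238 probes), 50 probes rose (0.198%) and 6 fell (0.0238%). With the brightest probe standing for each gene, 37 of 13069 genes rose (0.283%) and 2 fell (0.0153%), and called genes below are those past this threshold. Of the 37 that rose, 8 were metallothioneins and 4 were in the lists of cell cycle genes. The smallest increase among them was 0.47 on the log2 scale, and the largest adjusted p was 0.0983. Over all 13069 genes the median ratio was 0.01, with 6697 ratios above 0 and 6372 below. At an unadjusted p below 0.05, 2005 probes were higher and 1905 lower.

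The 4 bystander values lay above the 4 control values for 219 genes (1.68%) and below them for 169 (1.29%). Of the 39 called genes, 19 had groups that did not overlap. Ratios had the same sign in 4 of 4 experiments for 1583 genes that were higher (12.1%) and 1461 that were lower (11.2%). These last counts were near each other, whereas the called genes lay almost all on the high side. Of the 56 called probes 89.3% were higher, a share that was 74.6% after quantile normalization, 50.4% after normexp background correction and 50% in the authors' own value table.

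**Figure D1:**
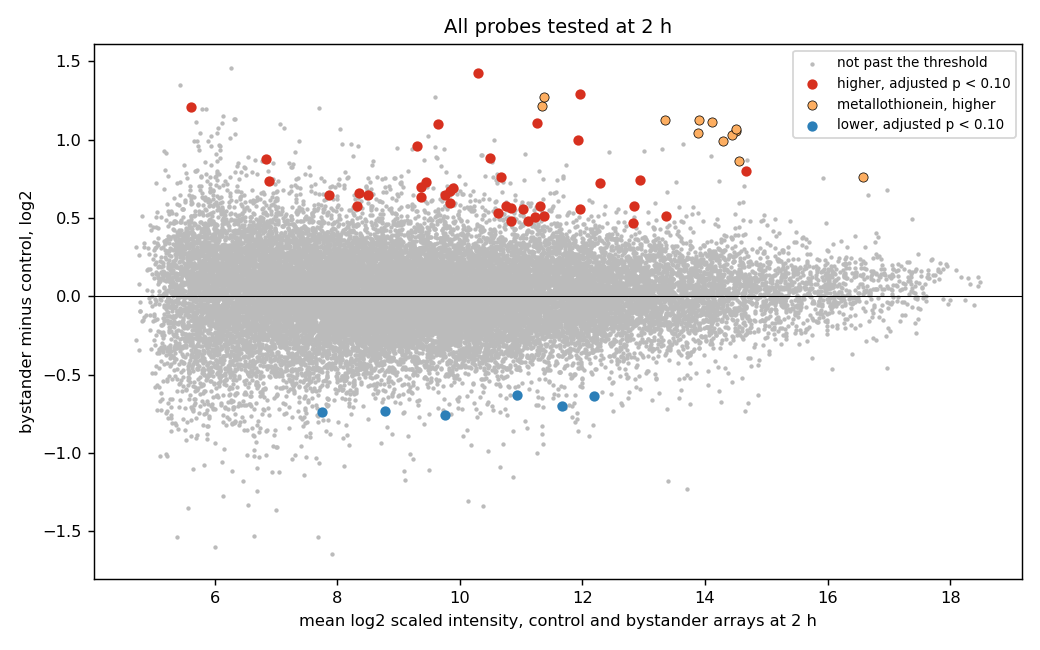
Each point is 1 of 25238 probes, with the mean log2 level at 2 h on the horizontal axis and the bystander minus control log2 ratio, a mean over 4 experiments, on the vertical axis; coloured points passed an adjusted p of 0.10. The 50 called increases are led by metallothioneins at high signal and by SERPINB2 and CXCL8, and 6 probes were called lower.

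The count of calls depended on single experiments more than the ratios did. Without experiment 4, 2163 probes rose (8.57%) and 948 fell (3.76%), and all 56 calls made with 4 experiments were among them. By gene these were 1274 (9.75%) and 520 (3.98%). Some genes given below as not passing did pass in that fit, with the sign they had in all 4 experiments together. These were MT2A, MT1F, IL6, CXCL1, CXCL2, CXCL3, IL1B, IL33, NFKBIE, IER3, IER5, KLF2 and NR4A1. The others were DUSP2, DUSP5, TXN, OSGIN1, GDF15, TRIB2, SERPING1, FBLIM1, MEDAG and COL15A1. Leaving out only the control array of experiment 4 gave 1537 and 731 calls, and leaving out only its bystander array gave 14 and 0. Without experiment 1, 2 or 3 in turn, 8, 0 and 18 probes rose and none fell. The arrays sat on 3 slides that held unequal mixtures of groups, and with slide added as a block no probe passed, with 1487 higher and 1340 lower at an unadjusted p below 0.05. The bystander and control arrays of experiments 1 and 4 shared a slide, and each ratio from those experiments is within 1 slide. Nor did any probe pass without the experiment block (518 higher and 419 lower at an unadjusted p below 0.05) or with the 8 bystander and control arrays alone (1044 and 955).

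Metallothioneins formed the clearest group of increases. The called members were 1.82-fold (MT1A) to 2.42-fold (MT1M) higher in bystander cells. Apart from MT1M, the ratios of the called members varied little between experiments (SD 0.06 to 0.16). MT1F, MT2A and MT3 did not pass by their brightest probe and are given separately below. MT1E read 12.61, 12.39, 12.89 and 13.27 in control cells of experiments 1 to 4 and 13.66, 13.54, 14.01 and 14.46 in bystander cells. Every bystander value lay above every control value, and the ratio was 1.12 ± 0.06 (SD, n = 4; 2.18-fold; SE 0.09; limma adjusted p = 0.00191). MT1X read 13.65, 13.48, 14.10 and 14.46 in control and 14.54, 14.53, 15.10 and 15.64 in bystander cells, a ratio of 1.03 ± 0.12 (adjusted p = 0.00191). MT1G went from 13.71, 13.62, 14.15 and 14.42 to 14.85, 14.68, 15.03 and 15.61, a ratio of 1.07 ± 0.13 (adjusted p = 0.00206). Like MT1E, both of these genes had bystander values that lay entirely above the control values.

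MT1M varied more. It read 10.26, 10.55, 11.17 and 10.95 in control cells and 11.999, 12.16, 11.87 and 11.997 in bystander cells, so that bystander values were nearly level while control values were not, and its ratio was 1.27 ± 0.49 (adjusted p = 0.0160). MT1B, MT1H and MT1L had ratios of 1.11 ± 0.10, 1.06 ± 0.14 and 0.99 ± 0.16, with adjusted p of 0.00205, 0.00191 and 0.00493. MT1A, at 0.86 ± 0.12 (adjusted p = 0.00626), was the called member whose groups overlapped.

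The remaining members did not pass by their brightest probe. MT2A, the most widely expressed metallothionein, read 16.15, 16.55, 16.84 and 16.98 in control and 17.14, 17.38, 17.37 and 17.35 in bystander cells. Its bystander values lay above all control values, and its ratio of 0.68 ± 0.28 had an adjusted p of 0.115. Another MT2A probe, which was not its brightest, had a ratio of 0.76 and an adjusted p of 0.0637, and the remaining MT2A probe had 0.65 and 0.120. MT1F, whose signal was low, had a ratio of 1.45 ± 0.87 (adjusted p = 0.108), and MT3, a form known from brain, had 0.19 ± 0.45 (adjusted p = 0.532). The zinc exporter SLC30A1 and the zinc importer SLC39A14 had ratios of 0.45 and 0.44, and MTF1 itself had 0.04.

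Over the list of metallothioneins and zinc transporters, 8 of 15 members tested rose (53.3%, against 0.283% of all genes) and none fell, with a median ratio of 0.99. Ratios were positive in 4 of 4 experiments for 11 of them, and for 8 the groups did not overlap, against 12.1% and 1.68% of all genes. Without experiment 4, 10 of 15 rose (66.7%, against 9.75% of all genes) and the median was 0.93. Without experiment 1 the number was 5, and without experiment 2 it was 0, in fits where 8 (0.0317%) and 0 of all probes rose. Without experiment 3 the 8 called metallothioneins all passed (limma adjusted p 0.0322 to 0.0966), where 18 of all probes rose (0.0713%). With slide as a further block the MT1E ratio was 1.09 with an adjusted p of 0.167, and within slides 1, 2 and 3 bystander and control arrays differed by 1.16, 0.64 and 0.96. These differences ignore the pairing and rest on 1 or 2 arrays a group, and on slide 2 they set bystander cells of experiment 2 against control cells of experiment 3. Over 22 alternative settings its ratio ran from 0.85 to 1.26 and its adjusted p from 4.98e-06 to 0.996.

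Metallothionein transcripts are close in sequence, so that the members are not separate measurements. Of 60 bases, the brightest MT1H and MT1X probes had 55 in common, the MT1A probe and a dimmer MT1H probe 50, the MT1B and MT1E probes 49, and the brightest MT1G probe and the MT1L probe 46. Which of these genes gave the signal of those probes is uncertain. The MT1M probe had at most 29 bases in common with that of another gene, each MT3 probe at most 24, and a dimmer MT1G probe at most 26. That MT1G probe rose as well, by 1.21 ± 0.25 (adjusted p = 0.00206). Probes were compared only with each other and not with whole transcripts, so that low counts do not show that a probe is specific.

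The sequences before the start of the metallothionein genes are shown because these genes moved together and share a known regulatory element. Of 11 metallothionein genes tested, 4 had an entry in the RefSeq promoter table (GRCh38.p14), and the 150 bases before the start were searched on both strands for TGCACNC and TGCGCNC, the core of the metal response element. All 4 lie on the plus strand of chromosome 16. The stretches are chr16:56651736-56651885 for MT1B, chr16:56669664-56669813 for MT1H, chr16:56682320-56682469 for MT1X and chr16:56608434-56608583 for MT2A, and capitals mark the matches.
MT1B: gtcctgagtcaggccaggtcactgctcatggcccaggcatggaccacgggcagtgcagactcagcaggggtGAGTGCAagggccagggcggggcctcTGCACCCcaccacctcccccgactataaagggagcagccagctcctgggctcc
MT1H: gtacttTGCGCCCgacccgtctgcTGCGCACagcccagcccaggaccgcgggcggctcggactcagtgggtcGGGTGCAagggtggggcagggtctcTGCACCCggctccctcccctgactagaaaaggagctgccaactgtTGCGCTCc
MT1X: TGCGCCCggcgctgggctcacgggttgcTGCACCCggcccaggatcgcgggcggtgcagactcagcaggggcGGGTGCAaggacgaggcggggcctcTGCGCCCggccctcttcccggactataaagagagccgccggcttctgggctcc
MT2A: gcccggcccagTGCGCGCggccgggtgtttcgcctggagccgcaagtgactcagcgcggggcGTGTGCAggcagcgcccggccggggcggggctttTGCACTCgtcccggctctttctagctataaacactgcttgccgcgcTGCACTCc
MT1B held 2 matches, MT1H 5, MT1X 4 and MT2A 4. Of all 35116 promoters in the table, 17.1% held at least 1 match, 3.43% at least 2 and 0.137% at least 4. A match is a string of letters and not a measured binding site.

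**Figure D2:**
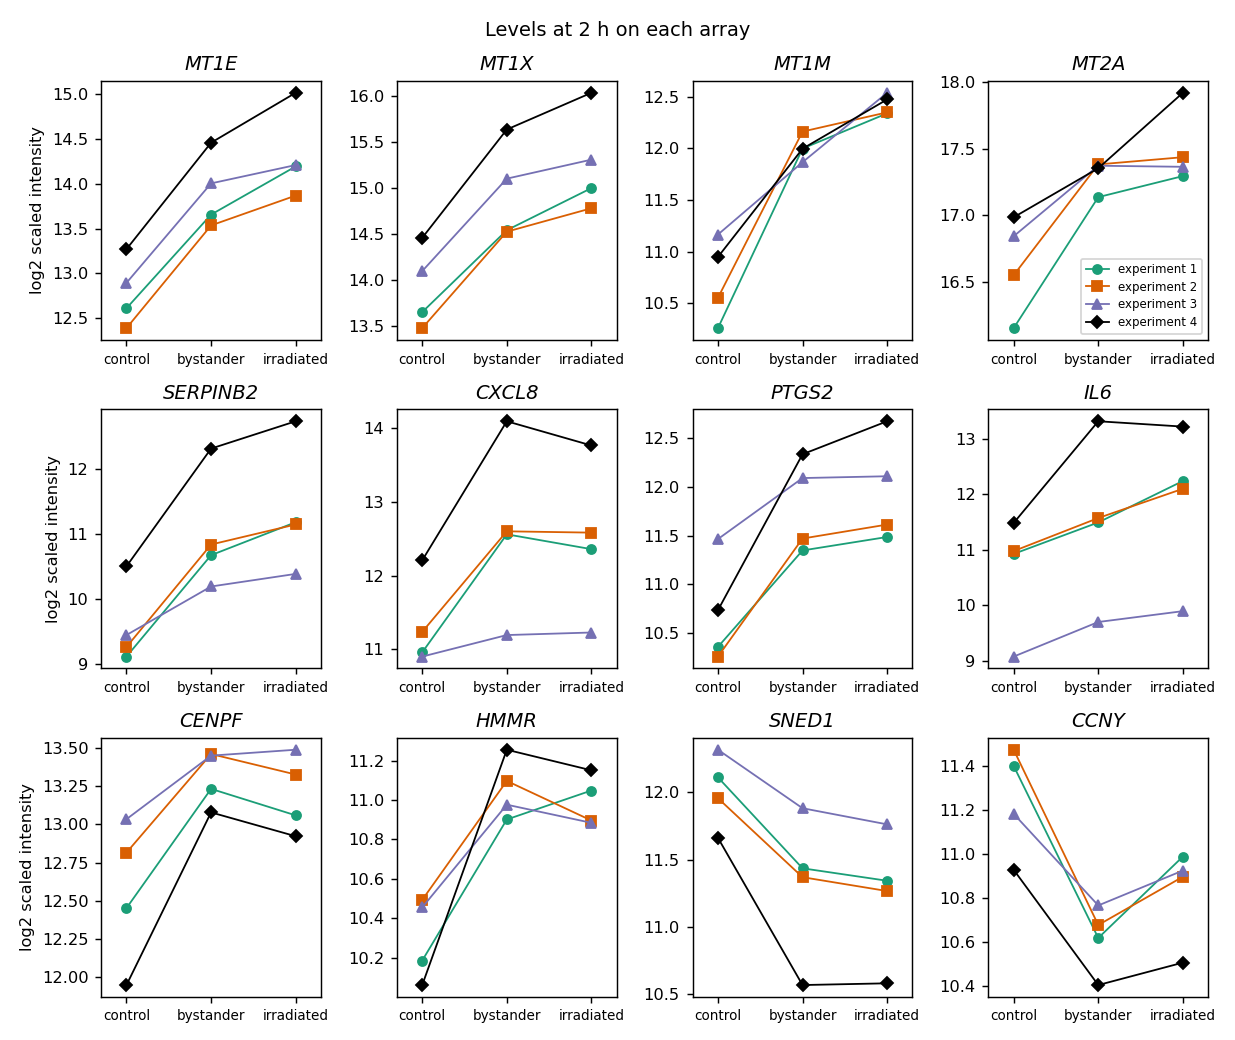
Log2 level at 2 h of 12 genes in control, bystander and irradiated cells, with 1 line for each of the 4 experiments. MT1E, MT1X, MT1M and MT2A are higher in bystander than in control cells in every experiment with no overlap of groups, SERPINB2 and CXCL8 are high throughout experiment 4, and SNED1 and CCNY are lower in bystander cells in every experiment.

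The largest ratio of a called gene was that of SERPINB2. SERPINB2, an inhibitor of plasminogen activators, read 9.12, 9.26, 9.45 and 10.50 in control and 10.68, 10.84, 10.19 and 12.32 in bystander cells. Experiment 4 was the highest in both groups, which overlapped, and the ratio of 1.42 ± 0.47 (2.68-fold; SE 0.18; limma adjusted p = 0.0267) was positive in 4 of 4 experiments. CXCL8, the neutrophil chemokine also called interleukin 8, read 10.96, 11.24, 10.90 and 12.21 in control and 12.56, 12.60, 11.19 and 14.10 in bystander cells. Its ratio was 1.29 ± 0.70 (adjusted p = 0.0806), with experiment 3 at 0.29 and the other experiments at 1.37 or more. PTGS2, the inducible cyclooxygenase that makes prostaglandin precursors, read 10.36, 10.26, 11.46 and 10.73 in control and 11.35, 11.47, 12.09 and 12.34 in bystander cells, a ratio of 1.11 ± 0.41 (adjusted p = 0.0668). Control and bystander values of PTGS2 overlapped only through the control array of experiment 3. Within slide 2, between bystander cells of experiment 2 and control cells of experiment 3, the difference in PTGS2 was 0.01, against 1.04 and 1.48 within slides 1 and 3, while the paired ratios were 0.99, 1.21, 0.63 and 1.602.

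MMP3, the stromelysin that cleaves matrix proteins, had a ratio of 1.00 ± 0.37 (adjusted p = 0.0983). MAP2K3, the kinase that activates p38, had 0.80 ± 0.20 (adjusted p = 0.0684). UNC13D, which takes part in granule release, had 0.87 ± 0.08 (adjusted p = 0.0944) at a low signal, and RIPK2, an adaptor kinase that passes signals to NF-κB, had 0.56 ± 0.11 (adjusted p = 0.0785). Each of these was higher in 4 of 4 experiments, and only RIPK2 had groups that did not overlap.

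Most other cytokines stood higher without passing. IL6 read 10.93, 10.98, 9.08 and 11.49 in control and 11.49, 11.57, 9.70 and 13.32 in bystander cells, a ratio of 0.90 ± 0.62 (adjusted p = 0.142), of which experiment 4 had 1.83 and the others 0.57 to 0.62. CXCL1 had a ratio of 0.76 ± 0.21 (adjusted p = 0.108), CXCL2 0.66, CXCL3 0.60, IL1B 0.40 and CXCL5 0.22. Of 17 cytokines and chemokines tested, 1 rose (5.88%, against 0.283% of all genes) and none fell, 15 ratios were above 0, 10 were positive in 4 of 4 experiments (58.8%, against 12.1%), and the median was 0.51. Without experiment 4 the median was also 0.51, and 11 of 17 rose (64.7%), against 9.75% of all genes in the same fit. CCL11, an eosinophil chemokine, had the lowest ratio of the list at -1.53. No member of the list, CCL11 included, was lower in 4 of 4 experiments, and none fell in the fit without experiment 4.

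None of the subunits and feedback inhibitors of NF-κB passed. NFKBIE, an inhibitor that NF-κB itself switches on, had a ratio of 0.41 ± 0.07 (adjusted p = 0.108), with no overlap between groups, and IER3, an early survival gene, had 0.70 ± 0.38 (adjusted p = 0.127). The median over 17 members was 0.41. Without experiment 4, 6 rose (35.3%) and 1 fell (5.88%), against 9.75% and 3.98% of all genes, with a median of 0.32.

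Immediate early genes, the transcription factors that answer a stimulus without new protein, gave 0 calls among 25 tested, with 23 ratios above 0 and a median of 0.46. KLF2 had 0.84 ± 0.60 (adjusted p = 0.143) and NR4A1 had 0.87 ± 0.63 (adjusted p = 0.143). Experiment 4 carried the highest ratio of both genes, 1.70 and 1.79, and without it the list median was 0.20 and 6 members rose (24%, against 9.75% of all genes). No feedback gene of the MAP kinases passed. The phosphatase gene DUSP2 had 1.02 ± 0.58 (adjusted p = 0.120) and DUSP5 had 0.88 ± 0.87. Without experiment 4 the ratios of DUSP2 and DUSP5 were 0.73 and 0.46. The median of 17 members went from 0.27 to 0.05 without experiment 4, where 5 of them rose (29.4%, against 9.75% of all genes).

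**Figure D3:**
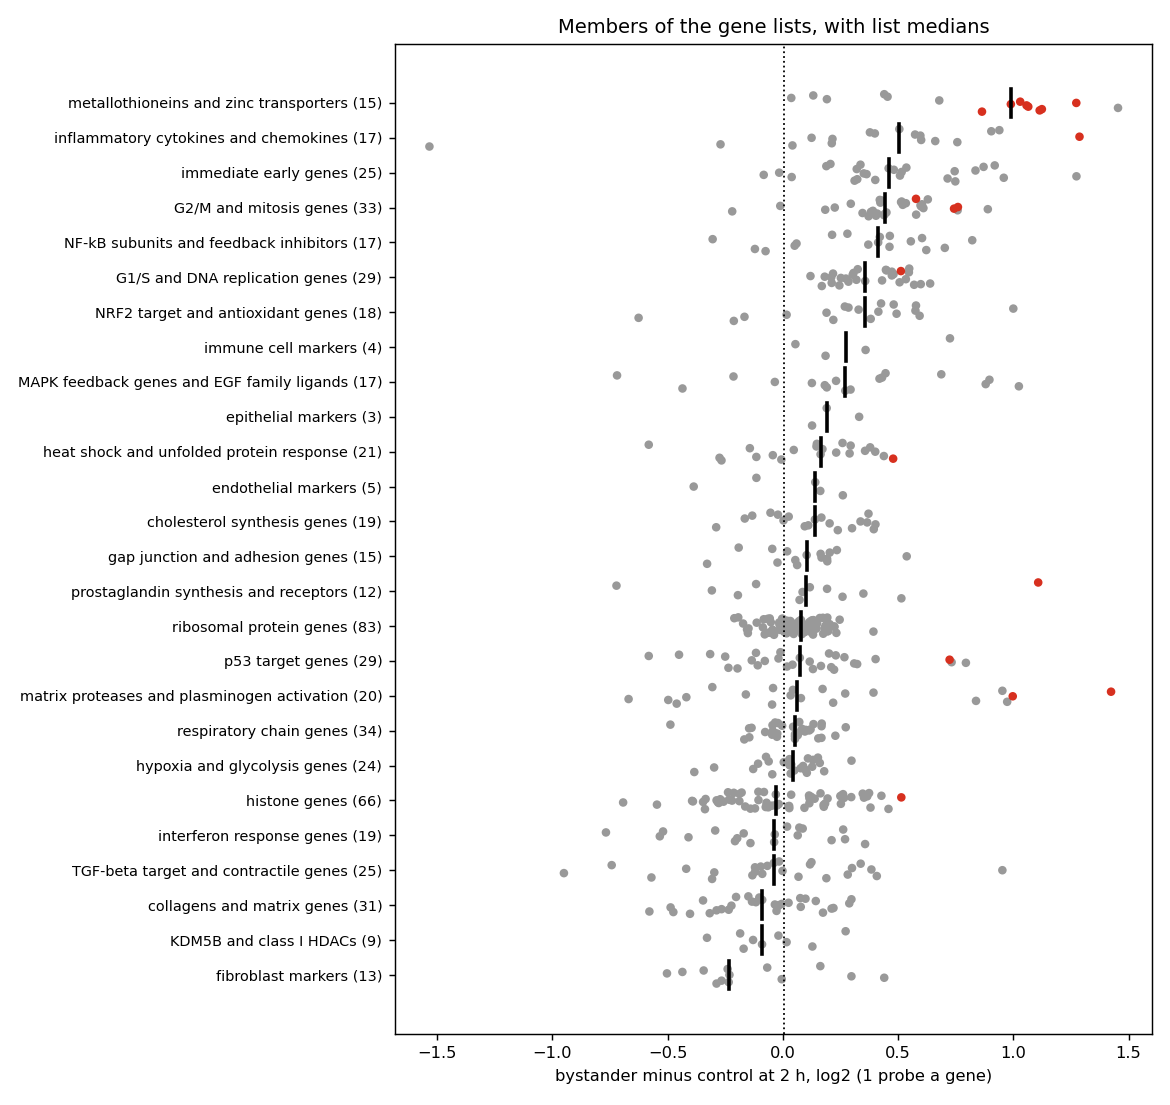
Bystander minus control log2 ratio at 2 h of each member of the gene lists, 1 point a gene, with the list median as a black bar, the median of all genes (0.01) as a dotted line and called members in red. Metallothioneins have the highest median (0.99), cytokines, immediate early and G2/M genes have medians between 0.44 and 0.51, and interferon, collagen and histone genes have medians between -0.09 and -0.03, which without experiment 4 were 0.14, 0.01 and 0.16.

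In the lists of cell cycle genes 4 members rose and none fell, and the other members did not pass. CENPF, a kinetochore protein of G2 and mitosis, read 12.45, 12.82, 13.03 and 11.95 in control and 13.23, 13.46, 13.45 and 13.08 in bystander cells, a ratio of 0.74 ± 0.30 (adjusted p = 0.0637). HMMR, a hyaluronan receptor that also acts at the mitotic spindle, read 10.18, 10.49, 10.45 and 10.06 in control and 10.90, 11.10, 10.98 and 11.26 in bystander cells, a ratio of 0.76 ± 0.30 (adjusted p = 0.0823). For both genes the groups did not overlap, and experiment 4 had the lowest control value and the highest ratio. UBE2C, the ubiquitin-conjugating enzyme of the anaphase-promoting complex, had a ratio of 0.58 ± 0.19 (adjusted p = 0.0944), also without overlap.

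Of 33 G2/M and mitosis genes tested, 3 rose (9.09%) and none fell. Ratios were above 0 for 31 of them and positive in 4 of 4 experiments for 26 (78.8%), with 12 whose bystander values lay above all control values and a median of 0.44. Over all genes, 0.283% rose, 12.1% were positive in 4 of 4 experiments and 1.68% had bystander values above all control values. Without experiment 4, 18 rose (54.5%), against 9.75% of all genes in that fit, and the median was 0.30. With experiment 1, 2 or 3 left out, or with slide as a block, none passed. Among 29 genes of G1/S and DNA replication, RRM1, a subunit of ribonucleotide reductase, was the 1 that rose (0.51 ± 0.16, adjusted p = 0.0793). All 29 ratios of that list were above 0, 15 were positive in 4 of 4 experiments, and the median was 0.36, or 0.16 without experiment 4, where 5 rose (17.2%, against 9.75% of all genes).

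Of the called genes outside the cell cycle lists, the following were picked after their values were seen, and they are no tested group. CEP55, which acts in the last step of cell separation, went from 10.02, 10.33, 9.73 and 10.14 to 10.84, 11.15, 10.29 and 11.46 (0.88 ± 0.32, adjusted p = 0.0684). FANCD2, of the Fanconi anaemia pathway of crosslink repair, had a ratio of 0.69, TRAIP, a ubiquitin ligase of replication stress, 0.70, and OIP5, which helps to load centromeric chromatin, 0.59. CKAP2, a microtubule protein of the spindle, had 0.56, PIMREG 0.57, CIT, the citron kinase of cytokinesis, 0.53, and the histone gene H3C11 0.51. The groups did not overlap for CKAP2, PIMREG, CIT, H3C11 and TRAIP.

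Of the 3 called G2/M genes, HMMR and CENPF had an entry in the promoter table, and that of HMMR is printed because it held matches to the cell cycle homology region, an element of genes that are repressed outside G2 and mitosis. It was searched as TTTGAA or TTCGAA on both strands in the same 150-base window. The stretch, chr5:163460482-163460631 on the plus strand of GRCh38.p14 (RefSeq), held 2 adjacent matches, shown in capitals.
HMMR: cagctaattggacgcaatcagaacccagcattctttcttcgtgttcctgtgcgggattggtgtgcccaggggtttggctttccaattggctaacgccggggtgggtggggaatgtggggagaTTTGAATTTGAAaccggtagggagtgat
Of the 33 G2/M genes, 27 had an entry and 11 of these (40.7%) held at least 1 match, against 7.87% of all promoters. CENPF had 0 matches in its window.

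Other called genes, picked after their values were seen and no tested group, included PLK3 and PPP1R15A. PLK3, a stress-induced kinase, read 11.68, 11.88, 11.61 and 12.53 in control and 12.22, 12.60, 12.23 and 13.54 in bystander cells, a ratio of 0.72 ± 0.20 (adjusted p = 0.0637). PPP1R15A, which restores translation after stress, had 0.56 (adjusted p = 0.0791) and CHAC1, a glutathione-degrading enzyme of the unfolded protein response, had 0.48 (adjusted p = 0.0791). Of 21 heat shock and unfolded protein response genes CHAC1 was the 1 called (4.76%, against 0.283% of all genes), and the median was 0.16. Without experiment 4, 6 of them rose (28.6%, against 9.75% of all genes). Among 18 targets of the oxidant sensor NRF2 none passed and the median was 0.36. TXN (thioredoxin) had 0.48 ± 0.24 (adjusted p = 0.142) and OSGIN1 0.58 ± 0.35 (adjusted p = 0.151), and without experiment 4 the number that rose was 10 of 18 (55.6%), against 9.75% of all genes.

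Decreases were few. SNED1, an extracellular matrix protein, read 12.11, 11.96, 12.32 and 11.66 in control and 11.44, 11.37, 11.88 and 10.57 in bystander cells. Its ratio was -0.70 ± 0.28 (limma adjusted p = 0.0684), lower in 4 of 4 experiments with overlapping groups. CCNY, a membrane-bound cyclin, read 11.40, 11.47, 11.18 and 10.93 in control and 10.62, 10.68, 10.77 and 10.40 in bystander cells, entirely below, with a ratio of -0.63 ± 0.19 (adjusted p = 0.0637). The other 4 probes called lower belonged to genes whose brightest probe did not pass. These were LOXL3, a collagen crosslinking oxidase, at -0.76, MEDAG at -0.74, the cold-inducible RNA-binding protein gene CIRBP at -0.73 and CTDSP2 at -0.64. The brightest MEDAG probe gave -0.49 with an adjusted p of 0.125.

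Of the next genes by unadjusted p, none passed. TRIB2, a pseudokinase, had a ratio of -0.50 (adjusted p = 0.108), SERPING1, the inhibitor of complement C1, -0.72 (adjusted p = 0.115), and FBLIM1, of cell-matrix junctions, -0.58 (adjusted p = 0.117). Bystander values lay below all control values for SERPING1 and FBLIM1. No list had a called member on the low side with all 4 experiments.

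None of the collagens and matrix genes and none of the fibroblast markers on the lists passed. Of 31 collagens and matrix genes, 21 ratios were below 0 (against 6372 of all 13069 genes) and the median was -0.09. Without experiment 4, 3 of them rose (9.68%) and 2 fell (6.45%), against 9.75% and 3.98% of all genes, and the median was 0.01. COL15A1 had -0.58 ± 0.29 (adjusted p = 0.211). The 13 fibroblast markers had 10 ratios below 0 and a median of -0.23, the lowest of the lists, which without experiment 4 was 0.12, with 4 that rose (30.8%, against 9.75% of all genes). TGF-β target and contractile genes had a median of -0.04 over 25 members, with 0 calls.

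Housekeeping groups and chromatin regulators showed the scale of the rest. Ribosomal protein genes had 0 calls among 83 and a median of 0.08, and respiratory chain genes 0 among 34 and 0.05. Without experiment 4, 35 ribosomal protein genes rose (42.2%, against 9.75% of all genes) with a median of 0.22, so that small ratios passed in that fit. Among 19 interferon response genes none passed, the median was -0.04 (0.14 without experiment 4), and ISG15 had -0.52 ± 0.54 (adjusted p = 0.235). Cholesterol synthesis genes had a median of 0.14 over 19 and hypoxia and glycolysis genes 0.04 over 24, with 0 calls in both. Without experiment 4, 4 of the cholesterol genes rose (21.1%, against 9.75% of all genes), and 4 of the hypoxia genes fell (16.7%, against 3.98%) with a median of -0.03. The histone demethylase gene KDM5B had a ratio of -0.13 ± 0.14, and the deacetylase genes HDAC1 and HDAC2 had -0.17 ± 0.23 and 0.13 ± 0.29, with adjusted p of 0.489, 0.435 and 0.617. Without experiment 4 the HDAC1 ratio was -0.06 and the HDAC2 ratio -0.0083.

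The bystander cells were then compared with the directly irradiated cells of the same dishes. Both share the control arrays, so that their ratios to control are given side by side. The difference was tested as irradiated minus bystander in the fit of 12 arrays. Control arrays are not part of that difference, but they enter the residual variance of its test. In irradiated cells 781 probes rose (3.09%) and 681 fell (2.7%) against control, or 522 genes (3.99%) and 369 genes (2.82%). Irradiated cells exceeded bystander cells at 11 probes (0.0436%) and fell below them at none, with 180 higher and 103 lower at an unadjusted p below 0.05. The 7 genes called by their brightest probe were CDKN1A, BTG2, AEN, SESN1, PPM1D, IER5 and PLK3, of which CDKN1A, the p21 inhibitor of cyclin-dependent kinases, BTG2, an antiproliferative factor, AEN, an apoptosis nuclease, SESN1, a stress-induced regulator, and PPM1D, a phosphatase that ends p53 signalling, are known p53 targets. IER5 is an immediate early gene.

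CDKN1A read 12.27, 11.76, 13.41 and 13.39 in control, 12.41, 12.14, 13.51 and 13.60 in bystander and 14.15, 13.90, 15.03 and 14.60 in irradiated cells. Its bystander ratio was 0.21 ± 0.12 (adjusted p = 0.481), its irradiated ratio 1.72, and the difference of 1.51 had a limma adjusted p of 0.0122. For BTG2 the bystander and irradiated ratios were -0.20 and 1.47 (difference 1.67, adjusted p = 0.0122). For PPM1D they were 0.07 and 0.90, for AEN 0.05 and 0.97, and for SESN1 -0.25 and 0.65, with differences of 0.83, 0.92 and 0.90. PLK3 was the 1 gene of the 7 that also rose in bystander cells with all 4 experiments, by 0.72 against 1.504, a difference of 0.78 (adjusted p = 0.0648). IER5 had a bystander ratio of 0.35 (limma adjusted p = 0.218). Without experiment 4 its ratio was 0.32 and passed (adjusted p = 0.0826).

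Among 29 p53 target genes, 1 rose in bystander cells (3.45%, against 0.283% of all genes) and 13 in irradiated cells (against 3.99% of all genes). Irradiated and bystander cells differed for 5 of the 29, against 7 of all 13069 genes. The median ratios were 0.07 in bystander and 0.51 in irradiated cells. Without experiment 4, 7 rose in bystander cells (24.1%, against 9.75% of all genes). GADD45A, a p53 target of growth arrest, had bystander ratios of -0.05, -0.15, 0.15 and 1.33 in experiments 1 to 4, so that its mean of 0.32 rests on experiment 4. GDF15, a secreted stress cytokine, read 13.40, 13.26, 14.28 and 14.51 in control and 14.53, 14.24, 15.02 and 14.59 in bystander cells (0.73 ± 0.46, adjusted p = 0.158), and without experiment 4 its ratio was 0.95 (adjusted p = 0.0181). Of the metallothioneins none differed between bystander and irradiated cells by this test. MT1E had ratios of 1.12 and 1.53 to control, CXCL8 1.29 and 1.16, SERPINB2 1.42 and 1.78, and CENPF 0.74 and 0.64. Without experiment 4 the difference was called at 18 probes higher in irradiated cells and 1 lower, and without experiment 1, 2 or 3 at none.

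**Figure D4:**
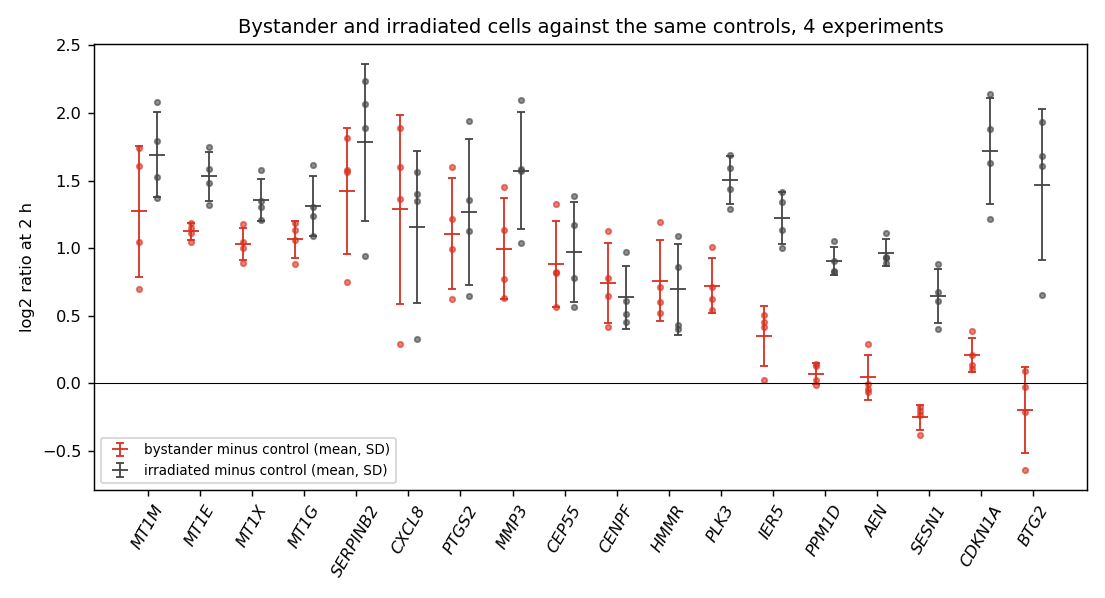
Log2 ratio to control at 2 h of 18 genes in bystander and in irradiated cells, with 1 point for each of the 4 experiments and the mean with its SD. MT1E has means of 1.12 and 1.53 and CXCL8 of 1.29 and 1.16, whereas CDKN1A, BTG2, AEN, SESN1 and PPM1D have means between -0.25 and 0.21 in bystander cells and between 0.65 and 1.72 in irradiated cells.

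The bystander ratios at 2 h were set beside those at the other times, each against its own control cells. The arrays of different times sat on different slides, so that slide and time cannot be told apart. As a mean over 4 experiments, the median ratio of the metallothionein list was 2.23 at 0.5 h, 0.76 at 1 h, 0.95 at 2 h, 1.71 at 4 h, 1.05 at 6 h and 0.91 at 24 h. The mean at 1 h rests on experiment 4, with 0.46, 0.38, 0.30 and 1.92 in experiments 1 to 4. At 2 h it was the least variable, with 0.81 to 1.05 over the experiments against 0.42 to 3.28 at 0.5 h. For cytokines and chemokines the same measure was 1.37, 0.44, 0.45, 1.47, 1.16 and 0.65, with the lowest means at 1 h and 2 h. Here too the mean at 1 h rests on experiment 4, since experiments 1 to 4 had 0.01, -0.06, 0.34 and 1.48 at 1 h and 0.60, 0.57, 0.23 and 0.42 at 2 h. G2/M genes had -0.24, 0.20, 0.48, 0.12, 0.82 and 0.21, and 2 h and 6 h were the times at which all 4 experiments were above 0. The G2/M means at 1, 4 and 24 h rest on experiment 4, at 0.83, 0.57 and 2.08. At 0.5 h experiment 3 had 0.85, against -0.92, -0.75 and -0.16 in experiments 1, 2 and 4. At 2 h experiment 4 had 0.98, against 0.24 to 0.37 in the others. At 6 h it had 1.59, against 0.33 to 0.75 in the others. Immediate early genes had 0.74, 0.44, 0.49, 0.34, 0.26 and 0.10. Their mean at 0.5 h rests on experiment 3, at 1.93 against 0.29 to 0.45 in the others. Their means at 1, 2 and 4 h rest on experiment 4, at 1.37, 1.29 and 1.24 against at most 0.20, 0.26 and 0.29 in the others. At 6 h experiments 1 to 4 had 0.34, 0.20, -0.15 and 0.65, and at 24 h -0.13, -0.32, 0.59 and 0.24. The sign thus differed between experiments at both of these times.

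**Figure D5:**
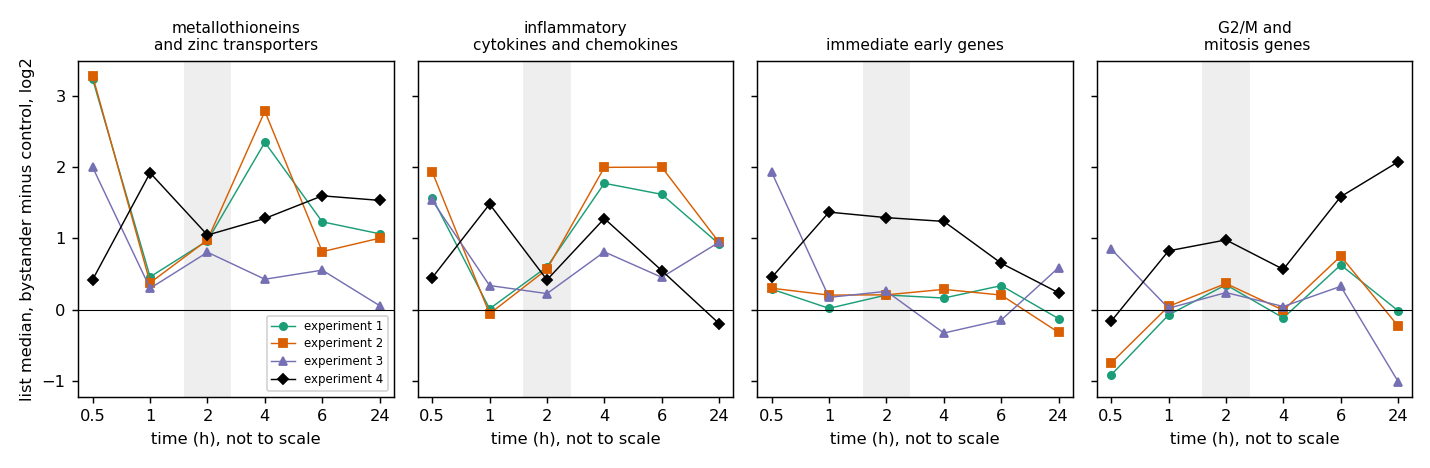
Median bystander minus control log2 ratio of 4 gene lists at each of 6 times from 0.5 to 24 h. Each line joins the points of 1 of the 4 experiments, and their mean is not drawn. The cytokine mean is 0.44 at 1 h and 0.45 at 2 h, against 1.37 at 0.5 h and 1.47 at 4 h, with experiment 4 at 1.48 and the others at 0.34 or less at 1 h, and the metallothionein points at 2 h lie between 0.81 and 1.05.

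Tests of the difference in response between times found little with all 4 experiments. Between 2 h and 1 h no probe passed (limma, 36 arrays at 1, 2 and 4 h), with 128 higher and 128 lower at an unadjusted p below 0.05. Between 2 h and 4 h, 1 probe was higher at 2 h and 1 lower (0.00396% each). The lower was IL33, an alarmin cytokine, with a bystander ratio of 0.38 at 2 h and 2.34 at 4 h, a difference of -1.97 (adjusted p = 0.0374). Without experiment 4, 735 probes were higher and 356 lower at 2 h than at 4 h, and without experiment 1, 2 or 3 no probe passed, IL33 included. IL33 read 5.27, 5.34, 6.28 and 6.25 in control and 5.93, 5.81, 7.16 and 5.76 in bystander cells at 2 h, a low signal, with experiment 4 the 1 experiment in which bystander cells were lower. CXCL8 had ratios of 1.29 at 2 h and 3.33 at 4 h, and SERPINB2 1.42 and 3.12, and neither difference passed.

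Probes below the filter on signal were tested only in alternative fits, and were otherwise looked at for detection. The fit with no filter is given with the other settings below. With a filter on the 2 h groups, 25997 probes were tested, of which 55 rose and 8 fell. The filter of the main fit left out 15762 probes. Of all 41000 probes, 1 was well above background on 4 of 4 bystander and 0 of 4 control arrays, and 20 showed the reverse. Detection was judged before scaling, and the unscaled 75th percentile was higher in control than in bystander arrays in experiments 1 to 3. What part this had in the counts was not tested.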

How the data were processed

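RNA of IMR-90 cells was measured on 1-colour (Cy3) Agilent whole human genome arrays. The deposited intensity is the processed signal of Feature Extraction 9.1.3.1, which the authors left background-subtracted and detrended but not scaled between arrays. Non-control spots were averaged by probe, and spots flagged as non-uniform were left out. Values below the lowest signal of a spot well above background on the same array were raised to that signal. All values were then log2 transformed and scaled to a common 75th percentile. The authors' own log2 value table was used as an alternative. A probe was kept when no more than 10% of the 72 arrays had it near background or flagged, which left 25238. Ratios were tested with limma 3.58.1 (R 4.3.3, intensity trend, 12 arrays at 2 h, 6 residual degrees of freedom, Benjamini-Hochberg, adjusted p below 0.10), with the experiment number as a block. The pairing comes from the methods, which state 1 pool of cells an experiment. Deviations from group means of same-numbered arrays correlated at 0.26 to 0.83 in all 12 pairs, against a median of -0.22 for 36 pairs of different number. For 64 tested probes a bystander or control array at 2 h had no value, and these arrays were left out of the fit of that probe. The brightest probe stood for a gene, with symbols updated through RefSeq accessions. Named genes were the 15 largest called increases, the called decreases with the next by p up to 10, all other called genes, list members of lowest p and genes the study names. Members and lists were chosen with earlier results of these data known. The scripts were tested on simulated data. The number of arrays limits the precision. Values of a few genes are not reported here.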

Additional observations from a re-analysis of the deposited data

Results flagged for a closer look

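In groups of 4, a sample whose gap to its nearest neighbour exceeds Dixon's critical value was set aside for a closer look; chance gives about 5% of groups, and 22 of 315 groups met it, 14 of them in experiment 4, 7 in experiment 3 and 1 in experiment 1. Among control levels in experiment 4, UNC13D at 7.21, APOBEC3B at 8.58, CHAC1 at 11.98, SCGB1A1 at 7.28, SFTPC at 8.76 and CD3E at 7.27 lay above the other 3 experiments. KDM5B at 12.37 and KDR, an endothelial receptor, at 7.05 lay below them. Among bystander levels in experiment 4, UNC13D at 8.16 and CHAC1 at 12.52 were high, as in control cells, and KDR at 7.08 was low, as in control cells. The ratios of experiment 4 were apart for MT1A (0.68, others 0.92 to 0.94), IL6 (1.83) and DUSP2 (1.90, others 0.71 to 0.76).

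In experiment 3 the control levels of FANCD2 (8.9996), RRM1 (12.65), SQLE (10.86) and CDH11 (13.75) lay below those of the other experiments, and the bystander level of IL33 (7.16) lay above them. The ratios of PIMREG (0.50) and ANKRD37 (-0.69) in experiment 3 were the lowest of 4. In experiment 1 the bystander level of MT2A was low at 17.14, against 17.35 to 17.38.

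By tests of the difference itself, the irradiated level exceeded the bystander level by 1.51 for CDKN1A, 1.67 for BTG2, 0.92 for AEN, 0.90 for SESN1, 0.83 for PPM1D, 0.87 for IER5 and 0.78 for PLK3, each in limma's fit. The bystander response at 2 h differed from that at 4 h by -1.97 for IL33 and by 1.13 for probe A_32_P152696.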

How the results depend on the processing

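All 56 calls kept their sign in every setting, but their number did not hold. Probes called higher and lower, against 50 and 6, were 0 and 0 with no scaling between arrays, without the replicate block, with 8 arrays only, with slide and replicate block, or in experiments 1 and 4 only. They were 210 and 207 with normexp background correction, 31 and 4 with no filter, 14 and 1 with no intensity trend, 13 and 0 at an adjusted p below 0.05, 2 and 1 in a paired test without moderation, 16 and 16 in the authors' table and 4137 and 2716 with array weights (control array of experiment 4: 0.0538). Quantile normalization gave 17 lower and spike-in scaling 10. Leaving out arrays or experiments gave 0 to 2163 higher and 0 to 948 lower. The share of calls that were higher was 89.3%, and 74.6% with quantile normalization, 50.4% with normexp and 50% in the authors' table. The median of all probes moved to -0.26 unscaled, 0.15 with spike-in scaling or normexp and 0.11 with no filter; unscaled and relative to that median, the median of the 11 metallothionein genes was 1.05 and the G2/M median 0.43. The fits with array weights, with experiments 1 and 4 only and without single arrays of experiment 4 were chosen after seeing the data. The cause of these changes was not tested.

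Metallothioneins called, against 8, were 0 unscaled, without the replicate block, with 8 arrays, with slide, in the paired test or in experiments 1 and 4 only, and 0 to 11 with arrays or experiments left out. G2/M genes called, against 3, were 8 with normexp (0.832% of all probes higher), 1 with no filter (0.0756%), 26 with array weights (16.4%), 0 to 18 with arrays or experiments left out, and 0 unscaled, with spike-in scaling, without the replicate block, with 8 arrays, with slide, with no trend, at 0.05, in the authors' table, in the paired test and in experiments 1 and 4. Irradiated against bystander gave 2 calls unscaled, 0 without the replicate block and 0 to 19 with experiments left out, against 11. The 2 h against 4 h difference gave 12117 unscaled, 1 with quantile normalization, 1 with no filter, 0 without the replicate block and 0 to 1091 with experiments left out, against 2.

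Ratios of named genes changed sign in 34 of 2309 cases, none of them a called gene. Unscaled, the ratio was -0.063 for CDKN1A, -0.058 for CXCL5, -0.14 for HDAC2, -0.082 for MT3, -0.26 for SAT1, -0.00067 for SIN3B, -0.045 for COX6C, -0.00018 for NDUFS4, -0.027 for RPS27A, -0.083 for SFTPC, -0.013 for CLDN5, -0.23 for AEN and -0.20 for PPM1D. Unscaled irradiated ratios were -0.0033 for CXCL2, -0.10 for CXCL5, -0.24 for HDAC2 and -0.077 for MT3. With arrays or experiments left out, GADD45A ran from -0.015 (without experiment 4) to 0.48, HDAC2 from -0.021 (without the control array of experiment 4; -0.0083 without experiment 4) to 0.20, MT3 from -0.0018 (without experiment 1) to 0.33, SAT1 from -0.15 (without the control array of experiment 4; -0.098 without experiment 4) to 0.060, AEN from -0.042 (without the bystander array of experiment 4; -0.036 without experiment 4) to 0.084, and BTG2 from -0.29 to 0.012 (without the control array of experiment 4). Array weights gave -0.051 for GADD45A, -0.045 for HDAC2 and -0.12 for SAT1. SAT1 was -0.0032 with median scaling, -0.036 with quantile normalization, -0.18 with normexp and -0.043 in the authors' table, where AEN was -0.0058. Normexp gave 0.25 for NIM1K and 0.046 for SESN1, spike-in scaling 0.0040 for KDM5B, and experiments 1 and 4 alone -0.0054 for SFTPC.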

Other observations

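Other called genes belong to none of the lists. UBE2V2, a cofactor of ubiquitin chains in DNA damage tolerance, read 9.11, 9.05, 9.15 and 9.02 in control and 10.10, 9.48, 9.66 and 9.99 in bystander cells, a ratio of 0.73 ± 0.29 (limma adjusted p = 0.0851). The control values of UBE2V2 lay close together, and every bystander value lay above them. GASK1B had a ratio of 0.67 ± 0.29 (adjusted p = 0.0802) with no overlap between groups. ARHGAP22, which switches off Rac, had 0.63 ± 0.13 (adjusted p = 0.0944), TEDC1, a centriole protein, 0.65 ± 0.15 (adjusted p = 0.0791), and DDX10, an RNA helicase, 0.47 ± 0.10 (adjusted p = 0.0979). APOBEC3B, a cytidine deaminase that edits DNA, had 0.57 ± 0.03 (adjusted p = 0.0983), the narrowest spread of the called genes named here. The antisense transcript SLC67A1-AS had 0.65 ± 0.21 (adjusted p = 0.0791), and NEFM, a neurofilament subunit, passed by a probe that was not its brightest (1.21, adjusted p = 0.0820). The signal of that NEFM probe was low, at 4.65, 4.72, 6.14 and 4.57 in control cells. It was well above background on 2 of 4 control arrays and 4 of 4 bystander arrays.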
